A study of Homo sapiens with 12 samples.

Results

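Bicarbonate transport and carbon dioxide hydration were followed in 7 genes, of 58735 counted in the cancer tissue. They are the bicarbonate and anion transporters SLC4A7, SLC4A2 and SLC26A6 and the carbonic anhydrases CA2, CA9, CA12 and CA13. They were matched by symbol and had been selected on their counts in these 12 libraries, being named in a list of pH genes once the differences between the conditions were known. Their levels and differences are therefore descriptions, and no p-value is given for them. All 7 passed the filter on low counts.

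RNA came from GFP-labelled MDA-MB-231 cells, a human breast cancer line of the triple-negative subtype with mesenchymal traits, which were embedded in fibrin gel and perfused in a multi-well plate. The cancer tissue was grown beside cardiac tissue (cardiac co-culture), beside hepatic tissue (hepatic co-culture) or alone (monoculture), with 4 libraries each. The cardiac tissue held cardiomyocytes made from human iPSC, with cardiac fibroblasts at 2%. The hepatic tissue held cells of HepG2, a human liver tumour line, with 2% lung fibroblasts. RNA was extracted 5 days after the cancer cells were seeded. The libraries are called biological replicates in the labels, without saying whether the cultures were separate, and the p-values below cover only the spread among these libraries.

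Cells that ferment glucose make lactate and protons, and they hold their internal pH by exporting protons or importing bicarbonate. Carbonic anhydrases interconvert carbon dioxide and water with bicarbonate and a proton, in the cytosol (CA2, CA13) or at the outer face of the plasma membrane (CA9, CA12). SLC4A7 brings bicarbonate in with sodium, which alkalinises the cell, while SLC4A2 exchanges internal bicarbonate for external chloride, which acidifies it. SLC26A6 exchanges chloride for bicarbonate, oxalate and other anions. CA9 is a widely used target gene of the hypoxia-inducible factors, and CA12 is also hypoxia-inducible in many cancer cells.

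CA9 and CA12 varied together across the libraries, so their upstream sequences are shown. Capitals mark ACGTG, which is a form of the core of the hypoxia response element but not the only form. The 250 bases before each RefSeq start (GRCh38.p14) were searched for ACGTG on both strands, where CACGT is the same motif on the other strand. In CA9 (chr9:35673678-35673927, plus strand) the motif was found 1 time, on the reverse strand, beginning 18 bases before the start. In CA12 (chr15:63381847-63382096, minus strand) these letters were not found in the window. Other forms of the core were not searched for, so a window without ACGTG can still hold a core. Of the other genes searched, SLC4A7 and SLC26A6 had no match, and SLC4A2 had none at 2 of its 4 starts and 4 and 6 at the others, where matches on the 2 strands overlapped. Among all 35116 RefSeq promoters of the same length, 18.5% held the motif. A match describes these letters and does not establish a binding site.
CA9: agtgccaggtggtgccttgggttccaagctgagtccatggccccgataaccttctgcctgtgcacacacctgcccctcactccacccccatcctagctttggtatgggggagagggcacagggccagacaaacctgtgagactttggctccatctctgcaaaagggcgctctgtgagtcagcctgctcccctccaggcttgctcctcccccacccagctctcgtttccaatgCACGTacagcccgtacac
CA12: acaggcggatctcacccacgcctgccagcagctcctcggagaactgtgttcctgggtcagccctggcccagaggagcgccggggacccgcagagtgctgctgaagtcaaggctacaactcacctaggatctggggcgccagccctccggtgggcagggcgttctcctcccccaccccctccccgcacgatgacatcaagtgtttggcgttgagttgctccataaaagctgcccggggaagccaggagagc

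Library totals ran from 26986277 to 37400378 counts in cardiac co-culture, 26227140 to 42430001 counts in hepatic co-culture and 35042363 to 42047064 counts in monoculture. Cardiac replicate 4 stood apart from its group, with 24.9 on the first principal component, against -16.3 to -6.8 in the other cardiac libraries. The monoculture libraries lay between 22.3 and 51.1. Mesenchymal markers of the cancer line were high in every library, and the 7 markers of epithelial or hormone receptor positive breast cells were mixed. ESR1 and PGR, the oestrogen and progesterone receptors, had at most 8 and 4 counts and CDH1 at most 21, while the keratins KRT8 and KRT18 averaged 477 to 620 CPM and 138 to 158 CPM over the groups. Of the partner tissues' markers, ALB had at most 14 counts and MYH6 had 0 in every library except a cardiac one with 21. In CPM, which are counts scaled to a common library total, the 10 cardiomyocyte markers summed to 1.28 to 4.37 in cardiac co-culture, 0.706 to 1.76 in hepatic co-culture and 2.08 to 3.00 in monoculture. Most of this was RYR2, with means of 2.2, 1.27 and 2.39 CPM in cardiac co-culture, hepatic co-culture and monoculture. The 10 hepatocyte markers summed to 69.5 to 95.4 CPM, 34.6 to 58.5 CPM and 41.8 to 74.4 CPM for those groups in that order, most of it SERPINA1. The 10 fibroblast markers summed to 12.3 to 13.2 CPM, 11.7 to 23.9 CPM and 9.91 to 16.7 CPM, with DPT and POSTN at 0 counts throughout. The epithelial or receptor list summed to 670 to 841 CPM, 634 to 760 CPM and 774 to 957 CPM, lowest in the hepatic libraries. The part of these marker levels, and of cardiac replicate 4, in the differences below was not tested. In such bulk tissue, fewer cells of a type and less RNA per cell cannot be told apart.

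Levels are CPM after TMM scaling, which corrects for differences in library composition. SLC4A7 (ENSG00000033867, chromosome 3, 27372721 to 27484420, GRCh38) encodes the sodium-bicarbonate cotransporter NBCn1. It had 84.4, 88.8, 95.9 and 73.5 CPM in cardiac replicates 1 to 4, 164, 182, 191 and 157 CPM in hepatic replicates 1 to 4, and 84.5, 84.6, 81.6 and 79.3 CPM in the monoculture libraries. Every hepatic library lay above every other library, while the cardiac and monoculture libraries overlapped. The log2 fold change was 1.07 ± 0.08 (SE, n = 4 each) for hepatic co-culture over monoculture, 0.05 ± 0.08 for cardiac co-culture over monoculture and -1.02 ± 0.08 for cardiac over hepatic co-culture.

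SLC4A2 (ENSG00000164889, chromosome 7, 151057210 to 151076527) encodes the chloride-bicarbonate exchanger AE2. It had 123, 135, 135 and 144 CPM in the cardiac libraries, 126, 98.4, 103 and 113 CPM in the hepatic libraries, and 141, 143, 168 and 156 CPM in the monoculture libraries. All hepatic libraries lay below all monoculture libraries, and the cardiac libraries overlapped with both. Relative to monoculture the log2 fold change was -0.18 ± 0.08 in the cardiac and -0.47 ± 0.08 in hepatic co-culture, and cardiac over hepatic co-culture gave 0.29 ± 0.08. Exons of SLC4A2 overlap those of CDK5 on the opposite strand (480 to 1003 counts per library), and reads of the pair could not be separated if the strand was not used in counting.

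SLC26A6 (ENSG00000225697, chromosome 3, 48625723 to 48635493) encodes an anion exchanger that can load chloride and release bicarbonate. It had 54.9, 64.1, 55.8 and 58.7 CPM in the cardiac libraries, 61.9, 58.6, 63.8 and 60.0 CPM in the hepatic libraries, and 38.9, 42.5, 39.1 and 42.3 CPM in the monoculture libraries. Both co-cultures lay wholly above monoculture and overlapped with each other. Its log2 fold change over monoculture was 0.52 ± 0.07 in the cardiac and 0.58 ± 0.07 in hepatic co-culture, with -0.06 ± 0.07 for cardiac over hepatic co-culture.

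**Figure D1:**
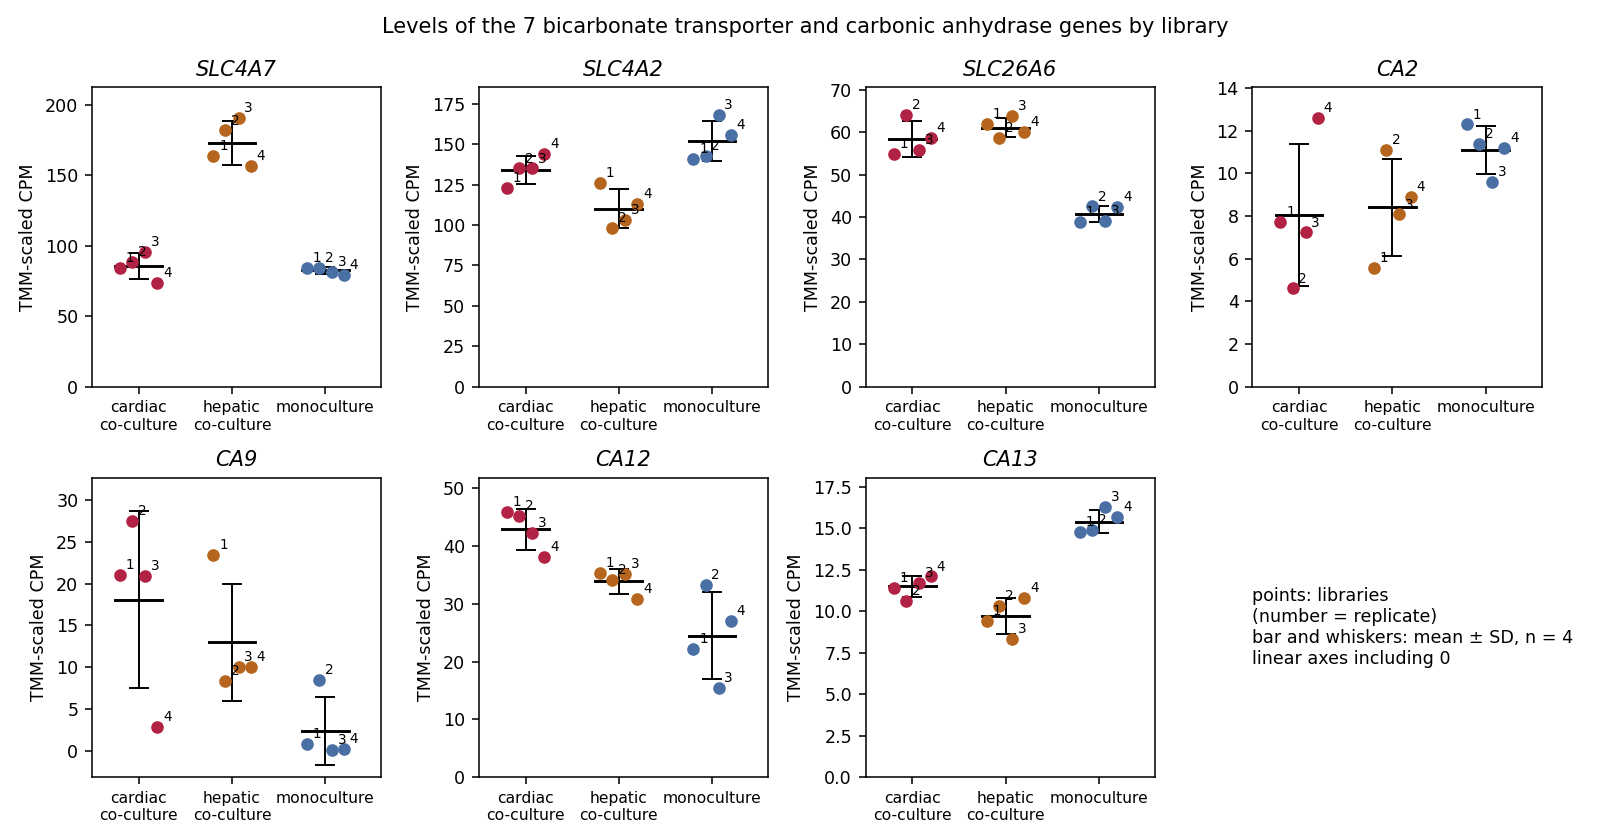
TMM-scaled CPM (vertical axes, linear) of the 7 genes in each library (points, numbered by replicate) with the mean and SD of 4 libraries, for cardiac co-culture, hepatic co-culture and monoculture. SLC4A7 was high in the hepatic libraries alone (157 to 191 CPM), SLC26A6 was high in both co-cultures, and the CA9 points spread widest relative to their group means.

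The balance of the transcripts for the importer and the exporter was set per length of exon, since longer transcripts give more reads. SLC4A7 over SLC4A2, as a ratio of CPM per kb, was 0.542, 0.517, 0.561 and 0.402 in the cardiac libraries, 1.03, 1.46, 1.46 and 1.10 in the hepatic libraries, and 0.472, 0.466, 0.385 and 0.403 in the monoculture libraries. By these lengths, SLC4A7 exceeded SLC4A2 in the 4 hepatic libraries and was below it in the other 8. The lengths join all annotated exons, so a ratio of 1 need not mean equal levels of the transcripts in use. Cardiac replicate 4 had a ratio within the monoculture range, and cardiac replicates 1 to 3 lay above that range.

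**Figure D2:**
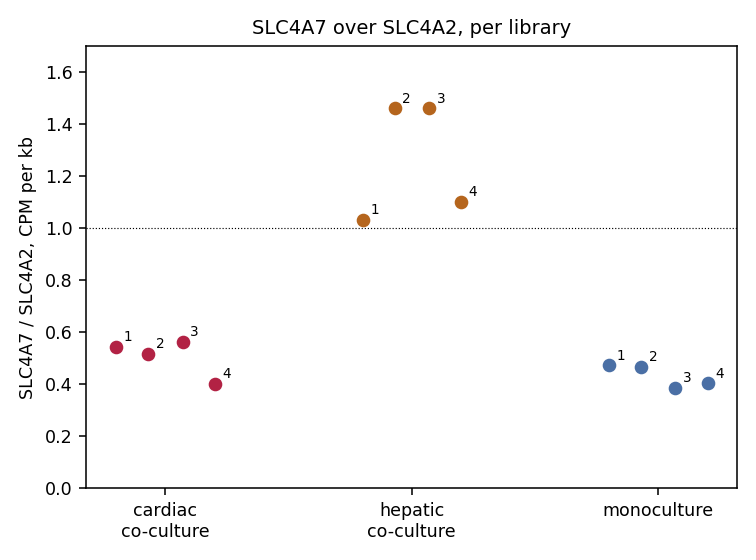
Ratio of SLC4A7 to SLC4A2 in CPM per kb of exon (vertical axis) in each library (points, numbered by replicate) of cardiac co-culture, hepatic co-culture and monoculture. The hepatic libraries, at 1.03 to 1.46, lie above the dotted line at a ratio of 1, and all others lie below it.

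Among the carbonic anhydrases, CA9 (ENSG00000107159, chromosome 9, 35673856 to 35681159) encodes an outward-facing membrane enzyme. It had 21.0, 27.5, 20.9 and 2.92 CPM in cardiac replicates 1 to 4, 23.4, 8.34, 10.1 and 10.1 CPM in hepatic replicates 1 to 4, and 0.886, 8.50, 0.0923 and 0.278 CPM in monoculture replicates 1 to 4. In counts, monoculture ran from 4 in replicate 3 to 333 in replicate 2, a spread of 92.1-fold in CPM. Monoculture replicate 2 reached the hepatic range, and cardiac replicate 4 lay below every hepatic library and below monoculture replicate 2.

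Group means of CA9 were 18.1 ± 10.6 CPM in cardiac co-culture, 13.0 ± 7.01 CPM in hepatic co-culture and 2.44 ± 4.05 CPM in monoculture (SD, n = 4). As a log2 fold change over monoculture this was 2.88 ± 1.11 in the cardiac and 2.40 ± 1.10 in hepatic co-culture, and 0.47 ± 1.00 for cardiac over hepatic co-culture. Over monoculture, the size of the difference depended most on 1 library. Without monoculture replicate 2, the log2 fold change was larger, at 5.46 in the cardiac and 4.98 in hepatic co-culture. Leaving out another monoculture library gave 2.46 to 2.61 in the cardiac and 1.98 to 2.12 in hepatic co-culture. Without cardiac replicate 4, the cardiac value was 3.24. Cardiac over hepatic co-culture was 0.85 without cardiac replicate 4, 0.92 without hepatic replicate 1, 0.21 without cardiac replicate 2 and 0.31 without hepatic replicate 2. CA9 exons overlap ARHGEF39 on the opposite strand (91 to 251 counts per library), and in 3 monoculture libraries CA9 had fewer counts than that neighbour.

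CA12 (ENSG00000074410, chromosome 15, 63321378 to 63382161) encodes the other outward-facing enzyme of the list. It had 46.0, 45.2, 42.3 and 38.2 CPM in the cardiac libraries, 35.4, 34.2, 35.2 and 30.8 CPM in the hepatic libraries, and 22.2, 33.3, 15.5 and 27.1 CPM in the monoculture libraries. The cardiac libraries lay above all others, and monoculture replicate 2 lay among the hepatic libraries. On the log2 scale CA12 differed from monoculture by 0.81 ± 0.17 in the cardiac and 0.47 ± 0.17 in hepatic co-culture, and 0.34 ± 0.17 for cardiac over hepatic co-culture. The hepatic value was 0.29 without monoculture replicate 3 and 0.64 without monoculture replicate 2. As a description over the 12 libraries, which share 3 conditions, log2 CPM of CA9 and CA12 had r = 0.88 and rho = 0.81. The deviations from the group means had r = 0.78, so libraries of the same condition also differed in both genes together.

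CA2 (ENSG00000104267, chromosome 8, 85463852 to 85481493) encodes a fast cytosolic enzyme. It had 7.73, 4.61, 7.23 and 12.6 CPM in the cardiac libraries, 5.58, 11.1, 8.08 and 8.91 CPM in the hepatic libraries, and 12.3, 11.4, 9.60 and 11.2 CPM in the monoculture libraries. The groups overlapped in all 3 comparisons. Its log2 fold change over monoculture was -0.46 ± 0.25 in the cardiac and -0.40 ± 0.25 in hepatic co-culture, and -0.06 ± 0.25 for cardiac over hepatic co-culture, which changed sign without cardiac replicate 2 (0.13) or hepatic replicate 2 (0.10). The cardiac value was -0.77 without cardiac replicate 4, which had the highest CA2 of all libraries, and -0.27 without cardiac replicate 2, which had the lowest. The hepatic value was -0.25 without hepatic replicate 1. Across libraries CA2 ran against CA9 (r = -0.62, rho = -0.83, 12 libraries). Within the co-cultures CA2 was lowest in cardiac replicate 2 and hepatic replicate 1, the libraries with the highest CA9 of their groups. In monoculture it was lowest in replicate 3 (9.60 CPM), which instead had the lowest CA9 (0.0923 CPM). The deviations from the group means were less closely related (r = -0.38).

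CA13 (ENSG00000185015, chromosome 8, 85220587 to 85284073) encodes another cytosolic enzyme. It had 11.4, 10.6, 11.7 and 12.1 CPM in the cardiac libraries, 9.42, 10.3, 8.32 and 10.8 CPM in the hepatic libraries, and 14.8, 14.9, 16.3 and 15.7 CPM in the monoculture libraries. Both co-cultures lay wholly below monoculture. The log2 fold change over monoculture was -0.43 ± 0.11 in the cardiac and -0.67 ± 0.11 in hepatic co-culture, and 0.24 ± 0.11 for cardiac over hepatic co-culture, where the libraries overlapped.

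Across the 7 genes, the size and direction differed by condition. In the hepatic co-culture SLC4A7, SLC26A6, CA9 and CA12 had higher means than monoculture, and SLC4A2, CA2 and CA13 lower ones. The cardiac means had the same signs, with SLC4A7 within 1 SE of 0 and at -0.01 without cardiac replicate 3. These comparisons share the monoculture libraries. In edgeR's quasi-likelihood test over 17468 genes, 4 of the 7 were past an adjusted p of 0.05 in the hepatic comparison, beside 28.0% of all genes. In the cardiac comparison 3 of the 7 were past it, beside 8.26%, and between cardiac and hepatic co-culture 2 of the 7, beside 6.18%. Of these 9 values, 6 stayed past the threshold in all the repeated fits listed with the processing. CA12 and CA13 in the cardiac comparison, and SLC4A2 between the co-cultures, fell short of it in some. Other values passed it only in some repeated fits: CA12 in the hepatic comparison and between the co-cultures, and CA2 in the cardiac comparison. CA9 passed it in the hepatic and cardiac comparisons only without monoculture replicate 2. The libraries of the groups did not overlap for 4, 3 and 2 of the 7 genes in these comparisons, beside 30.5%, 15.2% and 11.9% of all genes. Nothing is read from these counts, because the genes were chosen with the values known.

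**Figure D3:**
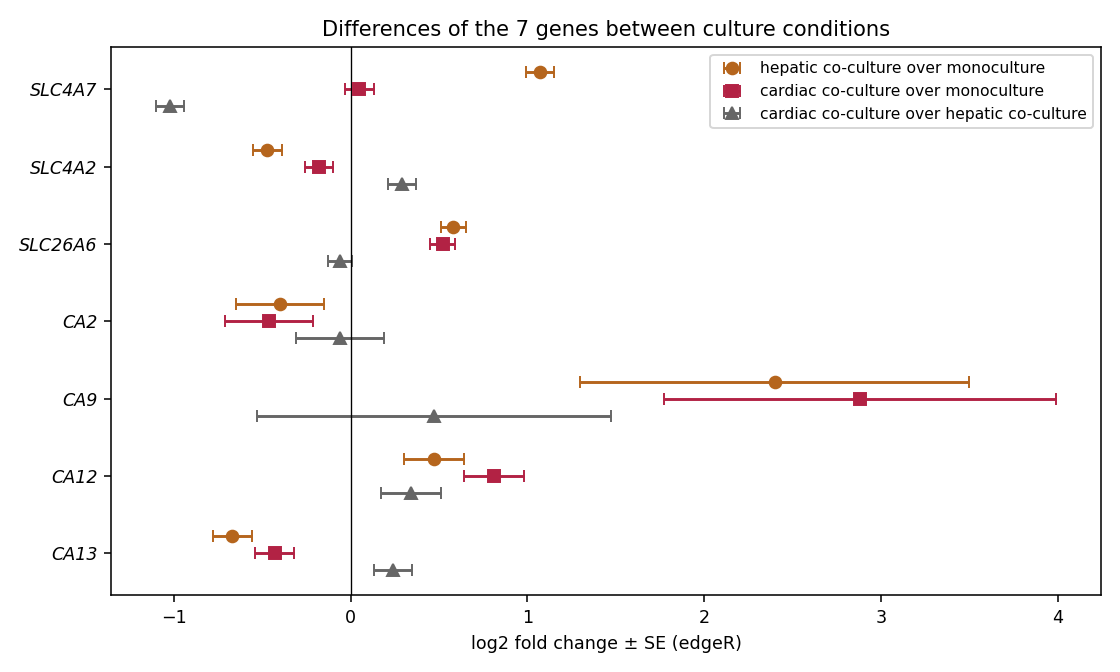
Log2 fold change ± SE from the edgeR fit (horizontal axis) of the 7 genes for hepatic co-culture over monoculture, cardiac co-culture over monoculture and cardiac over hepatic co-culture (n = 4 each). Over monoculture, SLC4A7 was at 0.05 in the cardiac and 1.07 in hepatic co-culture, SLC26A6 was at 0.52 and 0.58, and CA9 had the widest error.

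Per kb of exon, the order of the levels also changed with condition. In the cardiac co-culture SLC4A2 led with 17.7 ± 1.16 CPM per kb, followed by CA9 (10.8 ± 6.32), SLC26A6 (9.16 ± 0.65), SLC4A7 (8.91 ± 0.98), CA12 (5.87 ± 0.48), CA2 (3.79 ± 1.57) and CA13 (2.07 ± 0.12). All neighbours in that order overlapped in their libraries, except SLC4A7 and CA12. In the hepatic co-culture SLC4A7 led with 18.0 ± 1.64 CPM per kb, followed by SLC4A2 (14.5 ± 1.59), SLC26A6 (9.58 ± 0.36), CA9 (7.78 ± 4.2), CA12 (4.64 ± 0.29), CA2 (3.96 ± 1.07) and CA13 (1.76 ± 0.20). There SLC4A7 and SLC4A2, SLC26A6 and CA9, and CA12 and CA2 overlapped. In monoculture SLC4A2 led with 20.0 ± 1.61 CPM per kb, followed by SLC4A7 (8.58 ± 0.26), SLC26A6 (6.38 ± 0.31), CA2 (5.24 ± 0.52), CA12 (3.35 ± 1.03), CA13 (2.79 ± 0.13) and CA9 (1.46 ± 2.43). The first 4 of these did not overlap with their neighbours above, while CA2, CA12, CA13 and CA9 each overlapped with the next. By its mean, CA9 was last in monoculture and first of the 4 carbonic anhydrases per length in both co-cultures, although in cardiac replicate 4 it was 0.335 times CA12. Exon lengths are those of all annotated exons joined, which may exceed those of the transcripts in use.

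For each gene, the protein-coding genes with the most similar log2 CPM over the 12 libraries were found among 11660 genes. For CA9 they were SPAG4 (r = 0.989, rho = 0.979), STC1 (r = 0.986), a secreted calcium-regulating glycoprotein, and PGK1 (r = 0.984), a glycolytic kinase. SPAG4 had 57.1, 65.3, 52.3 and 27.0 CPM in the cardiac libraries, 57.4, 46.3, 51.6 and 45.2 CPM in the hepatic libraries and 14.8, 32.4, 6.35 and 10.1 CPM in the monoculture libraries. Like CA9, it was highest of its group in monoculture replicate 2 and lowest of its group in cardiac replicate 4. Without the 2 libraries farthest from the median, r of SPAG4 was 0.965. After removal of the group means, r with CA9 was 0.99 for SPAG4 and 0.96 for PGK1.

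For CA12 the closest were KDM3A (r = 0.982, rho = 0.888), a histone demethylase, PFKL (r = 0.952), a liver-type phosphofructokinase, and CYTH4 (r = 0.951). Without the 2 farthest libraries, r was 0.942 for KDM3A, 0.852 for PFKL and 0.877 for CYTH4. For CA2 they were MTBP (r = 0.981, rho = 0.979), NCAPG (r = 0.98), a condensin subunit, and TOP2A (r = 0.979), the DNA topoisomerase of dividing cells. TOP2A had 272, 171, 269 and 423 CPM in the cardiac libraries, 207, 346, 260 and 341 CPM in the hepatic libraries, and 439, 364, 350 and 375 CPM in the monoculture libraries. It was lowest in cardiac replicate 2 and hepatic replicate 1, as CA2 was. After removal of the group means, r with CA2 was 0.98 for MTBP and 0.97 for TOP2A. CA2 differed more within the cardiac libraries (4.61 to 12.6 CPM) than between the group means, which were 8.04 ± 3.32, 8.41 ± 2.27 and 11.1 ± 1.11 CPM in cardiac co-culture, hepatic co-culture and monoculture. For CA13 the closest were SLC39A14 (r = 0.982, rho = 0.986), a zinc and iron importer, URB2 (r = 0.973) and MCUR1 (r = 0.968). After removal of the group means, these had r = 0.87, 0.79 and 0.69.

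**Figure D4:**
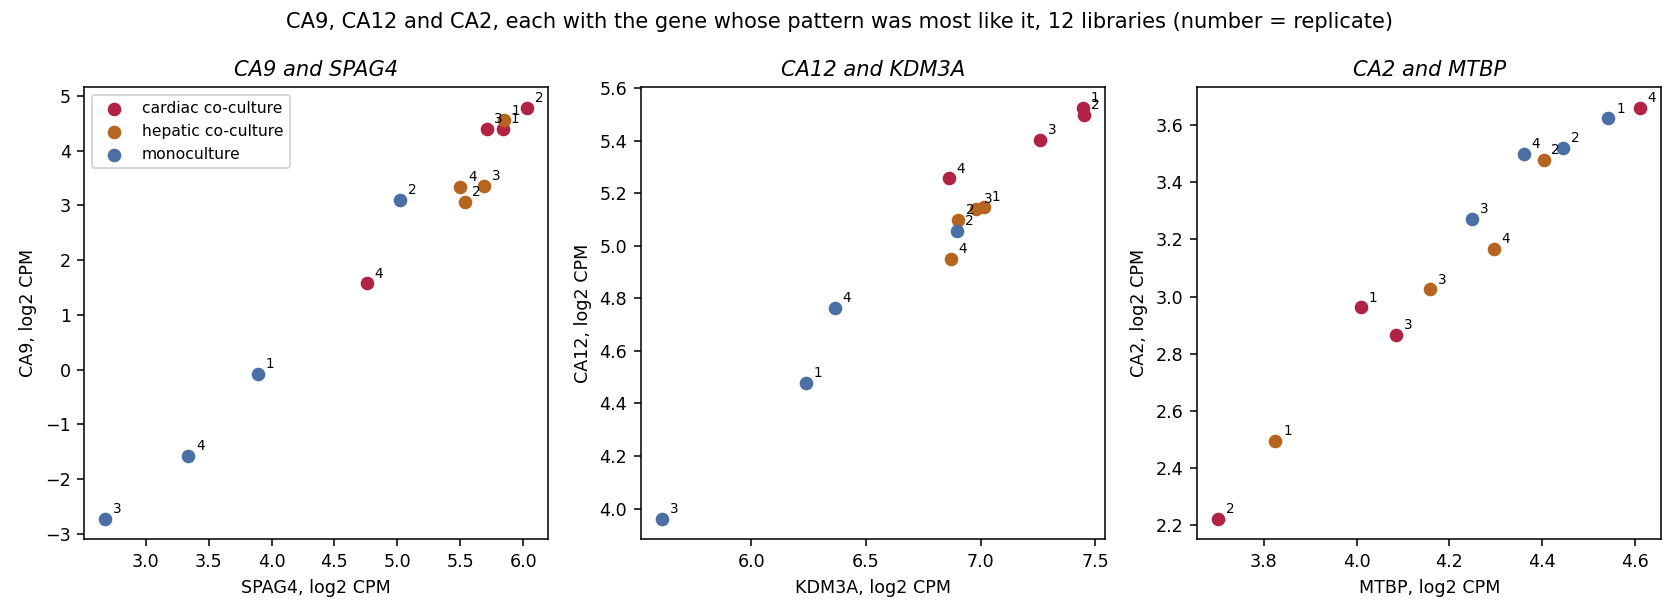
Log2 CPM of CA9, CA12 and CA2 (vertical axes) against the gene most like each (horizontal axes: SPAG4, KDM3A and MTBP) in the 12 libraries of cardiac co-culture, hepatic co-culture and monoculture, numbered by replicate. For CA9, cardiac replicate 4 lies between monoculture replicates 1 and 2, and it has the highest CA2 of all.

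For SLC4A7 the closest were MGLL (r = 0.987, rho = 0.888), which releases fatty acids from monoglycerides, LPIN2 (r = 0.975) and ANTXR2 (r = 0.972), all with their highest mean in hepatic co-culture. For SLC4A2 they were PRDM11 (r = 0.975, rho = 0.944), SLC35A4 (r = 0.97) and ATP6V0D1 (r = 0.97), a subunit of the vacuolar proton pump. For SLC26A6 they were GSTM2 (r = 0.962), a glutathione transferase, HOOK2 (r = 0.958) and LTBP3 (r = 0.957), a binding protein of latent TGF-beta. LTBP3 averaged 119 CPM in cardiac co-culture, 121 CPM in hepatic co-culture and 65.0 CPM in monoculture. After removal of the group means, r was 0.72 to 0.77 for the genes closest to SLC4A7. For those closest to SLC4A2 it was 0.87 to 0.91, and for those closest to SLC26A6 it was 0.67 to 0.7. These are correlations over 12 libraries in 3 conditions, given without tests.

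The wider machinery of pH control was described with 108 further genes in 8 lists, of which 76 passed the low-count filter. In the hepatic co-culture against monoculture, 11 rose and 11 fell, beside 14.4% and 13.6% of all genes. Together they were 28.9% of those tested beside 28.0% of all genes, with a median log2 fold change of 0.05 against 0.01 over all genes. The share was thus near the background, and the changes went both ways within 6 of the 8 lists. Rises and falls below are log2 fold changes ± SE. Of 11 bicarbonate and anion transporters 3 rose and 1 fell, of 8 sodium-proton exchangers 2 rose and 1 fell, and of 23 vacuolar pump genes 1 rose and 5 fell. Of 5 acid sensors 2 rose and 1 fell, of 6 monocarboxylate transport genes 1 rose and 1 fell, of 11 regulators 1 rose and 1 fell, and of 4 other carbonic anhydrases 1 rose. The remaining list, other proton pumps and channels, had 1 of 8 that fell.

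SLC26A2, a sulfate transporter of the anion exchanger family, fell most clearly. It had 39.8, 28.9, 38.5 and 38.2 CPM in the hepatic libraries and 95.0, 98.2, 87.6 and 91.8 CPM in the monoculture libraries, a log2 fold change of -1.36 ± 0.09 (edgeR's quasi-likelihood test, adjusted p = 1.1e-08). SLC4A8, a sodium-driven chloride-bicarbonate exchanger, rose by 1.17 ± 0.22 to 22.1 ± 4.2 CPM, against 9.86 ± 2.86 CPM in monoculture (edgeR, adjusted p = 0.0014). SLC26A8, an anion transporter best known from testis, rose by 2.31 ± 0.54 but reached only 0.883 ± 0.361 CPM, against 0.174 ± 0.0246 CPM in monoculture (edgeR, adjusted p = 0.0038). SLC9A7, a sodium-proton exchanger of the trans-Golgi network, rose by 0.60 ± 0.08, with 150 to 184 CPM in the hepatic and 99.6 to 117 CPM in the monoculture libraries (edgeR, adjusted p = 4.65e-05).

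Among the acid sensors, ASIC1, an acid-gated sodium channel, rose by 0.55 ± 0.13 (edgeR, adjusted p = 0.00394). Of the vacuolar pump, the subunits ATP6V0D1 and ATP6V0A2 fell by 0.49 ± 0.10 and 0.44 ± 0.09 (edgeR, adjusted p = 0.00124 and 0.00137). EZR, which links membrane proteins to actin, fell by 0.44 ± 0.07, and SLC16A7, a monocarboxylate transporter, fell by 0.50 ± 0.10 (edgeR, adjusted p = 0.000269 and 0.00138). Of the 22 calls, 17 held in each of the 12 fits that left out a library.

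In the cardiac co-culture against monoculture, 6 of the 76 rose and 3 fell, beside 4.93% and 3.33% of all genes. Together they were 11.8% of those tested beside 8.26%, with a median log2 fold change of 0.00 against 0.01 over all genes. These calls depended on single libraries. The count was 0 or 1 without any of cardiac replicates 1, 2 and 3 or monoculture replicates 1, 3 and 4, and 14 without cardiac replicate 4, and none of the 9 held in all 12 such fits. SLC16A3, the lactate and proton exporter MCT4, rose by 0.74 ± 0.16 in the cardiac and by 0.50 ± 0.16 in hepatic co-culture (edgeR, adjusted p = 0.021 and 0.0361). The hepatic call was lost in 6 of the 12 fits that left out a library (adjusted p up to 0.12, with a log2 fold change of 0.41 without hepatic replicate 1), and the hepatic and monoculture libraries overlapped. It had 520, 525, 467 and 368 CPM in the cardiac libraries, 470, 381, 352 and 387 CPM in the hepatic libraries, and 264, 360, 208 and 289 CPM in the monoculture libraries, so monoculture replicate 2 was again the highest of its group and cardiac replicate 4 the lowest.

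CA14, another outward-facing carbonic anhydrase, rose by 1.00 ± 0.27 in the cardiac and by 1.12 ± 0.27 in hepatic co-culture (edgeR, adjusted p = 0.035 and 0.00579). It had 6.05, 8.09, 5.59 and 3.37 CPM in the cardiac libraries, 8.86, 5.17, 5.34 and 5.74 CPM in the hepatic libraries, and 2.91, 3.45, 1.64 and 3.55 CPM in the monoculture libraries. The chloride-bicarbonate exchanger SLC4A3 rose by 0.45 ± 0.12, the kinase WNK4 by 0.83 ± 0.22, SLC9A7 by 0.29 ± 0.08 and the vacuolar pump subunit TCIRG1 by 0.22 ± 0.06 (edgeR, adjusted p = 0.0311, 0.0298, 0.037 and 0.0389). EZR fell by 0.27 ± 0.07 and the pump subunit ATP6V0E2 by 0.35 ± 0.10 (edgeR, adjusted p = 0.0306 and 0.0458). These genes were also called in hepatic co-culture, in the same directions. There SLC4A3 rose by 0.52 ± 0.12, WNK4 by 0.71 ± 0.22 and TCIRG1 by 0.27 ± 0.06, and ATP6V0E2 fell by 0.42 ± 0.10 (edgeR, adjusted p = 0.00396, 0.0226, 0.00428 and 0.0056). The hepatic call of WNK4 held in 9 of the 12 fits that left out a library, and those of SLC4A3, TCIRG1 and ATP6V0E2 in all 12.

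Between the co-cultures, 3 of the 76 were higher and 3 lower in the cardiac than in hepatic co-culture, beside 3.27% and 2.91% of all genes. Together they were 7.89% of those tested beside 6.18%, with a median of 0.03 against 0.00 over all genes. SLC26A2 had 72.9, 78.7, 82.1 and 81.7 CPM in the cardiac and 28.9 to 39.8 CPM in the hepatic libraries (log2 fold change 1.12 ± 0.09; edgeR, adjusted p = 1.71e-07). It was the only 1 of the 6 calls that held in all 12 fits that left out a library. ATP6V0D1 (0.33 ± 0.10) was also higher in cardiac co-culture, and SLC26A8 (-2.04 ± 0.54), SLC9A7 (-0.31 ± 0.08) and AHCYL1 (-0.24 ± 0.06), which binds and activates bicarbonate cotransporters, were lower (edgeR, adjusted p from 0.0207 to 0.0482). The count was 2 without cardiac replicate 2, and 3 without cardiac replicate 4, hepatic replicate 2 or hepatic replicate 3.

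Of the genes named whatever they did, SLC16A1 and SLC4A4 did not pass in any comparison. SLC16A1, the lactate transporter MCT1, was near 1 CPM, with 1.59 ± 0.77, 1.5 ± 0.32 and 0.995 ± 0.322 CPM in cardiac co-culture, hepatic co-culture and monoculture. SLC4A4, an electrogenic sodium-bicarbonate cotransporter, had 4.28 ± 1.11, 7.28 ± 2.56 and 5.19 ± 1.39 CPM in the same groups. The log2 fold change of SLC4A4 for cardiac over hepatic co-culture was -0.76 ± 0.25 (edgeR, adjusted p = 0.0794).

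**Figure D5:**
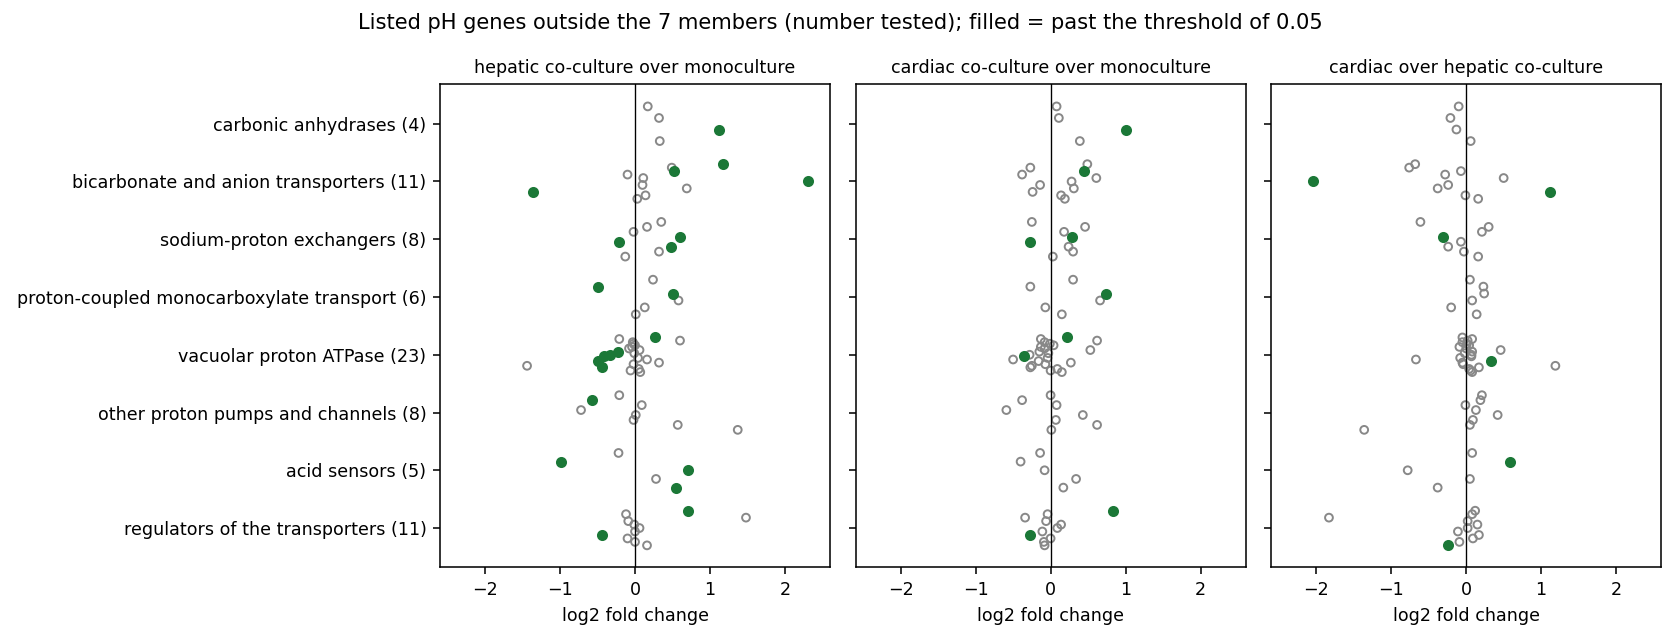
Log2 fold change (horizontal axes) of the 76 tested genes of the 8 further pH lists (rows, number tested in brackets) for hepatic co-culture over monoculture, cardiac co-culture over monoculture and cardiac over hepatic co-culture. Filled points passed edgeR's test at an adjusted p of 0.05, 22, 9 and 6 genes in the 3 panels, and in the hepatic panel lie on both sides of 0 in 6 of the 8 lists.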

How the data were processed

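Poly(A)-selected RNA of 12 libraries was sequenced by the submitters. The authors deposited a table of unnormalized read counts for 58735 genes, identified by Ensembl ID. HISAT2 2.2.1, featureCounts 2.0.6, DESeq2 1.42.0 and GRCh38 are named per the submitters' processing notes; for the annotation release, strand setting and handling of multi-mapping reads, nothing is given in the sources used here. A stranded and an unstranded kit are both described, per the labels' protocols. Symbols, coordinates and exon lengths are from GENCODE 29, which held all 58735 identifiers, and promoters from RefSeq.

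Counts were TMM-scaled, filtered by filterByExpr (17468 genes kept, 99.9% of counts) and fitted with edgeR 4.0.16 (R 4.3.3): robust quasi-likelihood test, 1 fit over 12 libraries with group as factor, two-sided, Benjamini-Hochberg adjustment over all tested genes, threshold 0.05. Log2 CPM used a prior count of 2. The fit was tested on simulated data. The members and gene lists were chosen with earlier results of these data known. Named beside the 7 genes are, per comparison, at most the 10 listed pH genes with the smallest adjusted p past the threshold, with SLC16A1, SLC16A3 and SLC4A4 whatever they did, and the 3 protein-coding genes (mean log2 CPM above 1) most like each of the 7 by Pearson's r; some genes that the rule names are not reported here. The fits were repeated with DESeq2 1.42.0, with DESeq2 size factors, with upper-quartile scaling, without the filter, on the compared groups only, with a replicate block and with each library left out.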

Additional observations from a re-analysis of the deposited data

Results flagged for a closer look

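Each of the 7 genes was examined in each group of 4 libraries, 21 groups in all, for a library far from the others. Linear CPM were set against the 95% critical value of Dixon's gap over range. For normally spread values, chance exceeds it in about 1 of 20 groups, and linear CPM need not be so spread. The log2 scale was not examined. In log2 CPM, CA9 was -0.082, 3.097, -2.722 and -1.57 in monoculture replicates 1 to 4. It was 4.554, 3.07, 3.35 and 3.339 in hepatic replicates 1 to 4. CA9 gave both of the 2 flags. Hepatic replicate 1 had 23.4 CPM of CA9, above 8.34 to 10.1 CPM in the other hepatic libraries (gap over range 0.881). Monoculture replicate 2 had 8.50 CPM, above 0.0923 to 0.886 CPM in the other monoculture libraries (gap over range 0.906).

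Monoculture replicate 2 also had the highest CA12, SPAG4, PGK1, KDM3A and SLC16A3 of its group, with 1291 CPM of PGK1 against 432 to 667 CPM in the other monoculture libraries. Hepatic replicate 1 had the highest CA12, SPAG4, PGK1, KDM3A, SLC16A3 and CA14 of its group and the lowest CA2 and TOP2A. SPAG4, PGK1 and KDM3A had been picked for likeness to CA9 or CA12 over these same libraries, and TOP2A for likeness to CA2. Their extremes here follow in large part from that choice and are not separate support. What set these libraries apart was not tested.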

How the results depend on the processing

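Of 378 values of the 7 genes under alternatives, 376 moved by less than 1 SD between replicates, and the other 2 were CA9 without monoculture replicate 2, given above. The alternatives include the 12 fits that left out a library. Leaving out 1 of 4 libraries can hardly move a group mean by 1 SD, so the count says little about those fits. For cardiac co-culture against monoculture, 1443 genes were called, 2279 by DESeq2 and 2219 without the low-count filter, and the share of higher calls was 59.7%, or 72.2% with upper-quartile scaling. Between cardiac and hepatic co-culture, DESeq2 called 10 of the listed pH genes in place of 6. Leaving out 1 library gave 3660 to 5529 calls over all genes for hepatic co-culture against monoculture (4892 in all libraries), 263 to 3378 for cardiac co-culture against monoculture and 676 to 1269 for cardiac against hepatic co-culture (1080 with all libraries). For the listed pH genes these ranges were 17 to 25, 0 to 14 and 2 to 7. With a replicate block, 4660, 1310 and 891 genes and 21, 9 and 4 listed pH genes were called in the 3 comparisons. Libraries with the same replicate number did not deviate together (correlations of -0.09 to 0.08 over 1000 genes, best with the own number in 6 of 24 cases). The labels do not say what a shared number means, and the numbers were not taken to pair libraries. The deposited library names of the cardiac group are numbered differently, and a pairing by those names was not tested. The causes were not tested. CA9 at 4 to 32 counts in 3 monoculture libraries limits the precision of its fold change.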
